A study of Mus musculus with 10 samples.

Results

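Pax5 is the transcription factor that commits lymphoid progenitors to the B cell lineage. It binds DNA through a paired domain, whose N-terminal and C-terminal modules contact neighboring stretches of a long recognition sequence, and it activates one set of genes in pro-B cells, the earliest committed B cell precursors, while it represses another. The genes described here are 69 Pax5-activated genes that fell at least 3-fold both when the only Pax5 protein carried the substitution R31Q, which lies in the N-terminal module, and when Pax5 was lost. They were selected on the RNA-seq values themselves. From genotype means of log2(TPM + 1), where TPM are reads per gene scaled by gene length and library total, a gene was kept if its mean TPM in Pax5+/+ cells was at least 5 and its mean was lower by log2 of 3 or more in both mutant genotypes. Immunoglobulin genes were dropped, among them 1 gene listed only by an Ensembl identifier, which left 69 of the 25579 genes listed. The differences of these genes between Pax5+/+ cells and either mutant are therefore a description of how they were chosen, and no test is given for them.

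RNA was sequenced from pro-B cells sorted directly from the bone marrow of C57BL/6 mice, with 2 libraries for each of 4 genotypes. Pax5+/+ cells have both wild-type alleles and Pax5+/- cells have a wild-type and a null allele. Pax5R31Q/- cells have an R31Q allele, made by CRISPR/Cas9 editing of zygotes and crossed to C57BL/6, over a null allele, so that R31Q is their only Pax5 protein. Cells were sorted by surface markers, and the gate of the fourth genotype was not stated. The fourth genotype, Pax5fl/fl Vav-Cre, deletes Pax5 in hematopoietic cells under the Vav promoter, and is called null below; its cells are labeled as progenitors rather than as pro-B cells. Pax5 binding was mapped by ChIP-seq in pro-B cells cultured for 6 days, with 1 library labeled Rag2-/- for wild-type Pax5 and 1 for Pax5R31Q/-, whose description names Rag2 in place of Pax5. Ages and any pooling of mice were not stated for the sequenced cells, and nothing says that the 2 libraries of a genotype came from separate mice, so p-values measure only the spread between these libraries.

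The libraries held between 21624858 and 34488250 reads on genes, which could be recovered because TPM values rise in whole-read steps, and the shallowest was a null library. Pax5 itself had 418 and 444 TPM in Pax5+/+, 272 and 287 TPM in Pax5+/-, 306 and 293 TPM in Pax5R31Q/- and 1242 and 1409 TPM in null cells; gene totals do not show which exons were read, so the null value does not check that label. The summed TPM of 12 pro-B markers was 8599 and 7918 in null libraries and between 14822 and 18799 in the others. Of the 12, 8 were lower and 1 higher in null than in Pax5+/+ cells (adjusted p under 0.05 from limma). Over all genes tested, 19% were lower and 15.9% higher in null than in Pax5+/+ cells. Among single genes, Rag1 and Rag2, the recombinase subunits, had means of 307 and 28.5 TPM in null against 561 and 130 TPM in Pax5+/+ cells, and Ebf1, a B cell transcription factor, 154 against 478 TPM. The summed TPM of 12 proliferation markers was 514 and 515 in null libraries and between 1786 and 3072 in the others, and that of 17 T and NK cell markers was 497 and 520 against 119 to 162. The sum of 20 plasmacytoid dendritic cell markers was 871 and 782 in Pax5R31Q/- against 1414 and 1400 in Pax5+/+ cells, with 3 of them lower and 0 higher by the same test, and was 1301 and 1221 in Pax5+/- cells. The 3 lower markers were Cox6a2, Cd300c and Spib, and Spib is also among the established Pax5-activated B cell genes listed below. Of all genes tested, 2.52% were lower and 1.53% higher in Pax5R31Q/- than in Pax5+/+ cells. In null cells the sum of these markers was 1193 and 1892, but 13 of the 20 markers were higher and 3 lower than in Pax5+/+ cells, with a median log2 difference of 1.93. The sum of 12 myeloid markers ranged from 372 to 2258 over the libraries, with its lowest and its highest value both in null libraries. In sorted populations, fewer cells of a type and less RNA per cell cannot be told apart, and the part of these differences in the values below was not tested.

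The 69 genes ranged from weakly to very highly expressed in Pax5+/+ cells, with a mean TPM between 5.06 (Tmc7) and 686 (Bcl7a) and a median of 23.6. They lie on 19 chromosomes, and 66 of them code for proteins. By what their products do, 8 are surface receptors, 5 are ectoenzymes, 6 are signal transducers, 7 belong to adhesion or the cytoskeleton, 7 act in the nucleus, 7 are metabolic enzymes, 5 are transporters or channel subunits, 8 are secreted and 3 act in ubiquitin transfer or removal. The others include 3 noncoding RNAs and 2 genes of membrane traffic. The word "lost" fits only part of the set in the mutants. The median level was 17.5% of that in Pax5+/+ cells in Pax5R31Q/- cells, with a highest value of 31.9%, and 4.51% in null cells, with a highest value of 31%. Mean TPM was under 1 for 13 genes in Pax5R31Q/- and for 36 genes in null cells, including all of those 13, while 24 genes kept more than 10 TPM in Pax5R31Q/- cells. Over the 10027 genes with at least 5 TPM in Pax5+/+ cells, the median levels were 103.2% and 89.9%. The second Pax5+/+ library had the higher value for 53 of the 69 genes, against 46.4% of these 10027 genes.

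**Figure D1:**
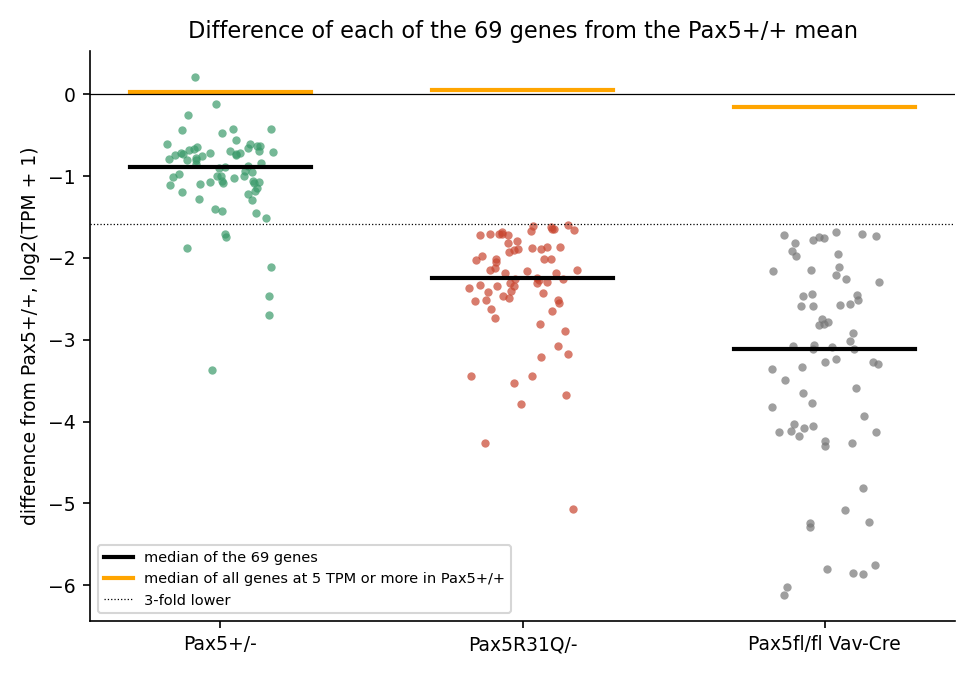
Difference of each of the 69 genes (points) from its Pax5+/+ mean on the log2(TPM + 1) scale, by genotype, with the median of the 69 genes (black), the median of all genes at 5 TPM or more (orange) and the 3-fold limit of the selection (dotted). The median of the 69 genes was -0.89 in Pax5+/-, -2.24 in Pax5R31Q/- and -3.11 in null cells, and only the last 2 groups were used to choose them.

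To see where wild-type Pax5 and Pax5-R31Q were bound, the ChIP-seq peaks, which did not enter the selection, were compared around the start sites. A promoter peak overlaps the stretch of 1 kb on either side of an annotated transcription start site (TSS), and a wild-type peak is called met if a peak of the R31Q list overlaps it by at least 1 bp. Of the 69 genes, 42 (60.9%) had a promoter peak in the wild-type list, fewer than the 79% of 9891 expressed genes. Expressed genes here and below are the 9908 that remain of those with at least 5 TPM in Pax5+/+ cells once immunoglobulin genes are dropped, of which 9891 matched RefSeq. For 18 of the 42 genes (42.9%), none of their promoter peaks was met, compared with 253 of the 7817 expressed genes with a promoter peak (3.24%). These 18 are the receptor genes Siglecg, Ms4a1, Lgr5, Cd36 and 4922502D21Rik, the ectoenzymes Plpp3 and Adam19, the secreted proteins Dkk3, Dnase1l3 and Egfl6, the enzymes Scd1 and Mgst1, and Pde9a, Cldn4, Map7, Heyl, H1fx and Abcb4. A further 24 genes kept a promoter peak, among them Nedd9, Uchl1, Hdac11, Polm, Pik3ap1, Slc1a5 and Bcl7a, and 27 had none in the wild-type list, among them Enpep, Col5a3, Grb7 and Parvb. With 1 library per genotype these shares have no replicate check, and the peak lists carry no read depth; the methods of the study mention down-sampling for comparisons of peak regions, but not whether it applies to these lists. The R31Q list is shorter as a whole, with 18821 peaks against 41983, and 37.5% of all wild-type peaks were met.

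The promoter peaks that were not met were narrow, with a median of 333.5 bp over 22 such peaks, against 574 bp for the 26 that were met, and the same held over all expressed genes (313 and 562 bp). Among promoter peaks of at least 400 bp, 5 of 26 genes (Siglecg, Ms4a1, Map7, Egfl6 and 4922502D21Rik) had none that was met, beside 1.20% of 6345 expressed genes. The part of peak width in the count was not tested further. A peak of the R31Q list lay within 500 bp of the peak at Scd1. If at least 50% of both peaks had to overlap, 18 of 42 genes again had no match, beside 14.7% of expressed genes.

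**Figure D2:**
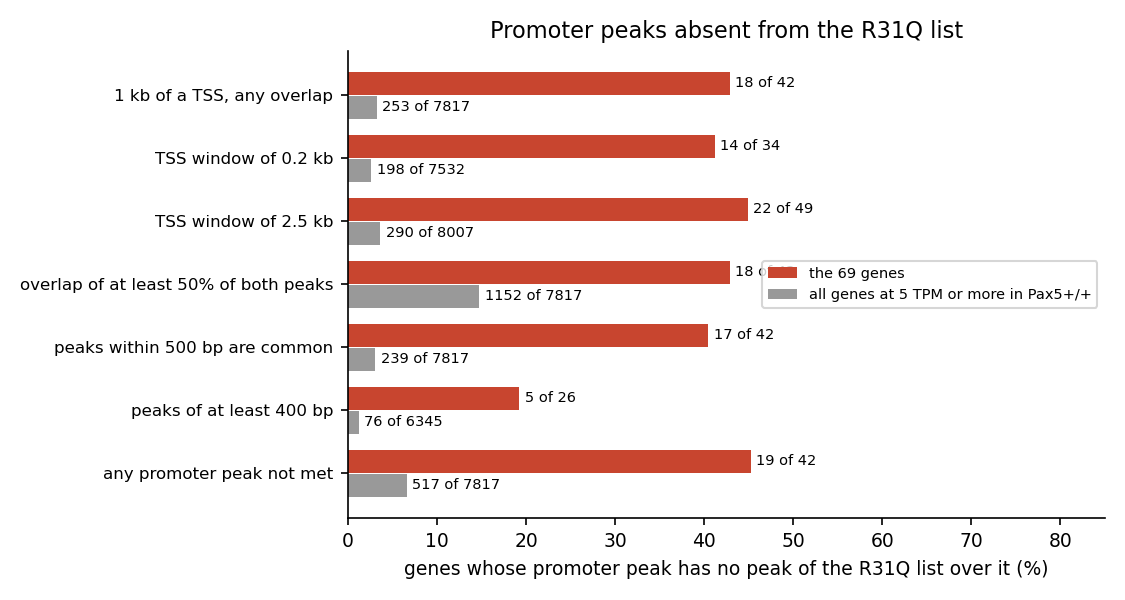
Share of genes with a wild-type promoter peak for which no R31Q peak lay over any of them (bars, in percent), for the 69 genes (red) and for all genes at 5 TPM or more in Pax5+/+ (gray), with the counts beside each bar. The top pair is the definition used in the text, 18 of 42 against 253 of 7817, and the other pairs change the window around the TSS, the overlap or the peaks counted.

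Over the whole locus, taken as the gene and 10 kb on either side, 63 of the 69 genes (91.3%) had at least 1 wild-type peak, close to the 91.5% of expressed genes, and 6 had none (Camk1g, Col5a3, Fcmr, Mmrn1, Rd3l and Speer2). Of the 186 peaks at these loci, 102 (54.8%) were met by an R31Q peak, beside 72.2% of 15456 peaks at expressed genes. At 16 genes (25.4%) none of the peaks was met, beside 5.31% of expressed genes, and at 19 genes (30.2%) all of them were, beside 64.8%. Nedd9, an adaptor of focal adhesions, had 9 peaks, of which 3 were met, including the one at its promoter. Myo1e, which encodes an unconventional myosin, had 8 peaks, of which 3 were met. Among the 21 genes with locus peaks but none at a promoter, none was met at Gmpr, Lpcat2, Crhbp and Ildr1. At 6 of the 18 genes in which the promoter peaks were not met (Cldn4, Heyl, Lgr5, Dnase1l3, Scd1 and Pde9a), other peaks of the locus were met.

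**Figure D3:**
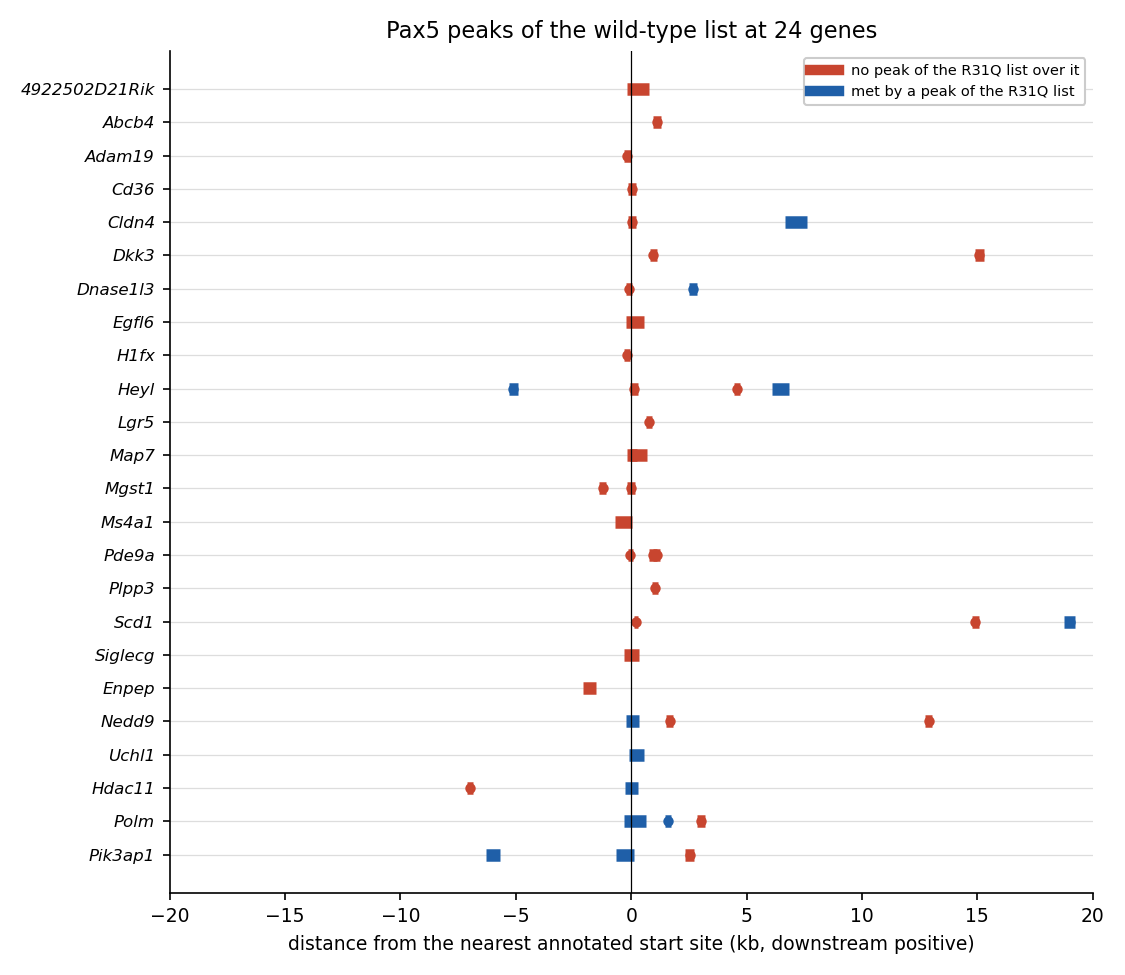
Wild-type Pax5 peaks within 20 kb of the nearest annotated start site at the 18 genes whose promoter peaks had no R31Q peak over them (upper rows) and at 6 other genes of the set (Enpep and below), drawn at their width, with points at their midpoints. Peaks without an R31Q peak are red and those met are blue, and the promoter peaks of Nedd9, Uchl1, Hdac11, Polm and Pik3ap1 are blue.

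The promoter peaks closest to the Pax5 recognition sequence are printed here so that peaks that were met and not met can be read side by side. Each peak was searched on both strands, in the 300 bases around its center, for GCANCCA, 1 free base and GCGTGAC, in which 13 letters are fixed and the second stretch is the one that the N-terminal module contacts. Capitals mark the best 15-base match within 61 bases, 5′ to 3′, read from the GRCm38 assembly of RefSeq, the build of the peaks. Every window yields a best match, and no random sequence was scored for comparison, so a match is not shown to be a binding site. At 4 genes whose peak was not met, 10 of the 13 letters were present, at Cd36 (chr5:17835806-17835866, minus strand), Cldn4 (chr5:134946858-134946918, plus strand), Egfl6 (chrX:166585451-166585511, minus strand) and Lgr5 (chr10:115586863-115586923, minus strand). Map7 (chr10:20171427-20171487, minus strand) had 9 letters, including all 7 of GCGTGAC. At 5 genes whose peak was met, Cep164 (chr9:45828451-45828511, plus strand), Slit1 (chr19:41743294-41743354, plus strand), Hdac11 (chr6:91156850-91156910, minus strand), Myo1e (chr9:70207211-70207271, minus strand) and Slc1a5 (chr7:16781168-16781228, minus strand), 10 letters were present. Map7 is added for its complete GCGTGAC.
Cd36: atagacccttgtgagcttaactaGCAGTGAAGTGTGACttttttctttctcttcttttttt
Cldn4: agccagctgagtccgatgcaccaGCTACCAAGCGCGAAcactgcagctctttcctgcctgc
Egfl6: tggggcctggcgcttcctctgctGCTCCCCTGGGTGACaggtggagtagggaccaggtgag
Lgr5: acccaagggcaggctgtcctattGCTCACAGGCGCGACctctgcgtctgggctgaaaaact
Map7: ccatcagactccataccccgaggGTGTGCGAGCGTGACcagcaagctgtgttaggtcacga
Hdac11: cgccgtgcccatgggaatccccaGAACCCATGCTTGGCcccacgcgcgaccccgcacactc
Myo1e: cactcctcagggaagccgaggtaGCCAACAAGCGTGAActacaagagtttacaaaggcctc
Slc1a5: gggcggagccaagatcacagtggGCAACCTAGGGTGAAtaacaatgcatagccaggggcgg
Cep164: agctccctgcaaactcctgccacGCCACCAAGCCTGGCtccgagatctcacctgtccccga
Slit1: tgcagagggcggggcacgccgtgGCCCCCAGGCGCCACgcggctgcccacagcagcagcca
A match of 10 or more letters occurred in 5 of 22 promoter peaks that were not met (22.7%) and in 6 of 26 that were (23.1%). The remaining ones, not printed, were a second promoter peak at Pde9a, which was not met, and one at Spsb4, which was. Over expressed genes the shares were 18.6% and 13%, and 10.9% of all wild-type peaks held such a match. The mean number of letters matched in GCGTGAC was 4.68 at peaks that were not met and 4.58 at those that were. Over expressed genes the order was reversed, with means of 4.51 and 4.66.

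A single wild-type allele was compared with both alleles next, because the Pax5+/- libraries had no part in the selection, although the Pax5+/+ libraries had. In Pax5+/- cells the 69 genes stood at a median of 51.6% of their Pax5+/+ level, with 33 genes between 50% and 75%, 33 below 50% and 3 above 75%. Both Pax5+/- libraries lay below both Pax5+/+ libraries for 65 of the 69 genes, compared with 14.1% of 9908 expressed genes, and the median difference was -0.89 on the log2(TPM + 1) scale against 0.02 over the 13436 genes tested. The selection on high Pax5+/+ values bears on this difference, and by how much was not tested. By limma, 3 genes of the set were called lower in Pax5+/- than in Pax5+/+ cells at an adjusted p under 0.05, and these are also the 3 called of all genes tested (0.0223%); all changed more than 3-fold on that scale. Without adjustment, 59 of the 69 genes and 814 of the 13436 (6.06%) had p under 0.05. With 2 libraries against 2, an exact permutation test cannot go below 0.333, so these calls rest on a spread shared over all genes.

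The 3 genes were Col5a3, Hdac11 and Enpep. Col5a3, a fibrillar collagen chain, was read 882 and 785 times with both alleles, 10 and 7 times in Pax5+/-, 4 and 3 in Pax5R31Q/- and 0 and 2 in null libraries. It was thus almost as low with a single wild-type allele as without Pax5, at 0.990% of the Pax5+/+ level, and its log2 difference between Pax5+/- and Pax5+/+ was -3.37 ± 0.16 (SE, adjusted p = 0.000762 from limma). Enpep, the surface aminopeptidase known as the BP-1 antigen of early B cells, was at 22.6 and 15.8 TPM in Pax5+/+ and at 2.36 and 2.88 TPM in Pax5+/- cells, a difference of -2.47 ± 0.21 (adjusted p = 0.0174 from limma). It fell further in Pax5R31Q/- cells, which had 4 reads and 1 read. Hdac11, a class IV histone deacetylase, had 40.6 and 48.7 TPM in Pax5+/+, 5.38 and 6.74 in Pax5+/-, 2.53 and 2.56 in Pax5R31Q/- and 13.7 and 11.3 TPM in null cells, so that both single-allele genotypes lay below the null cells without overlap. Its difference between Pax5+/- and Pax5+/+ was -2.69 ± 0.18 (adjusted p = 0.00464 from limma). In a fit of these 2 genotypes alone no gene of the set was called, and Col5a3 then had an adjusted p of 0.085 from limma. Col5a3 stayed called when any 1 of the 8 libraries was left out, Hdac11 only when the one left out was a null library (adjusted p up to 0.149 otherwise), and Enpep in no case (0.0538 to 0.246).

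Speer2, Rd3l and Edaradd came next, each at an adjusted p of 0.0541 from limma. Speer2, a member of a rodent gene family, was at 31.2 and 46.8 TPM in Pax5+/+, at 9.95 and 9.44 TPM in Pax5+/- and at 9.95 and 10.2 TPM in Pax5R31Q/- cells, with 0 reads in both null libraries. Rd3l was less expressed, with 6.89 and 10.9, 1.45 and 1.07, and 0.943 and 0.965 TPM, and 0 reads in null libraries. For Speer2, Rd3l and Col5a3 the Pax5+/- and Pax5R31Q/- levels were alike within the errors. Their log2 differences were -0.05 ± 0.21, 0.20 ± 0.23 and 0.08 ± 0.16 (SE). None of these 3 loci held a wild-type Pax5 peak. The other 3 loci without such a peak, Fcmr, Mmrn1 and Camk1g, had larger differences, at 2.26 ± 0.35, 1.15 ± 0.20 and 0.67 ± 0.25. Edaradd, the adaptor of the ectodysplasin receptor, stood at 26.0 and 26.2 TPM in Pax5+/+, 8.54 and 9.35 TPM in Pax5+/- and 1.48 and 1.52 TPM in Pax5R31Q/- cells, a stepwise order without overlap.

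**Figure D4:**
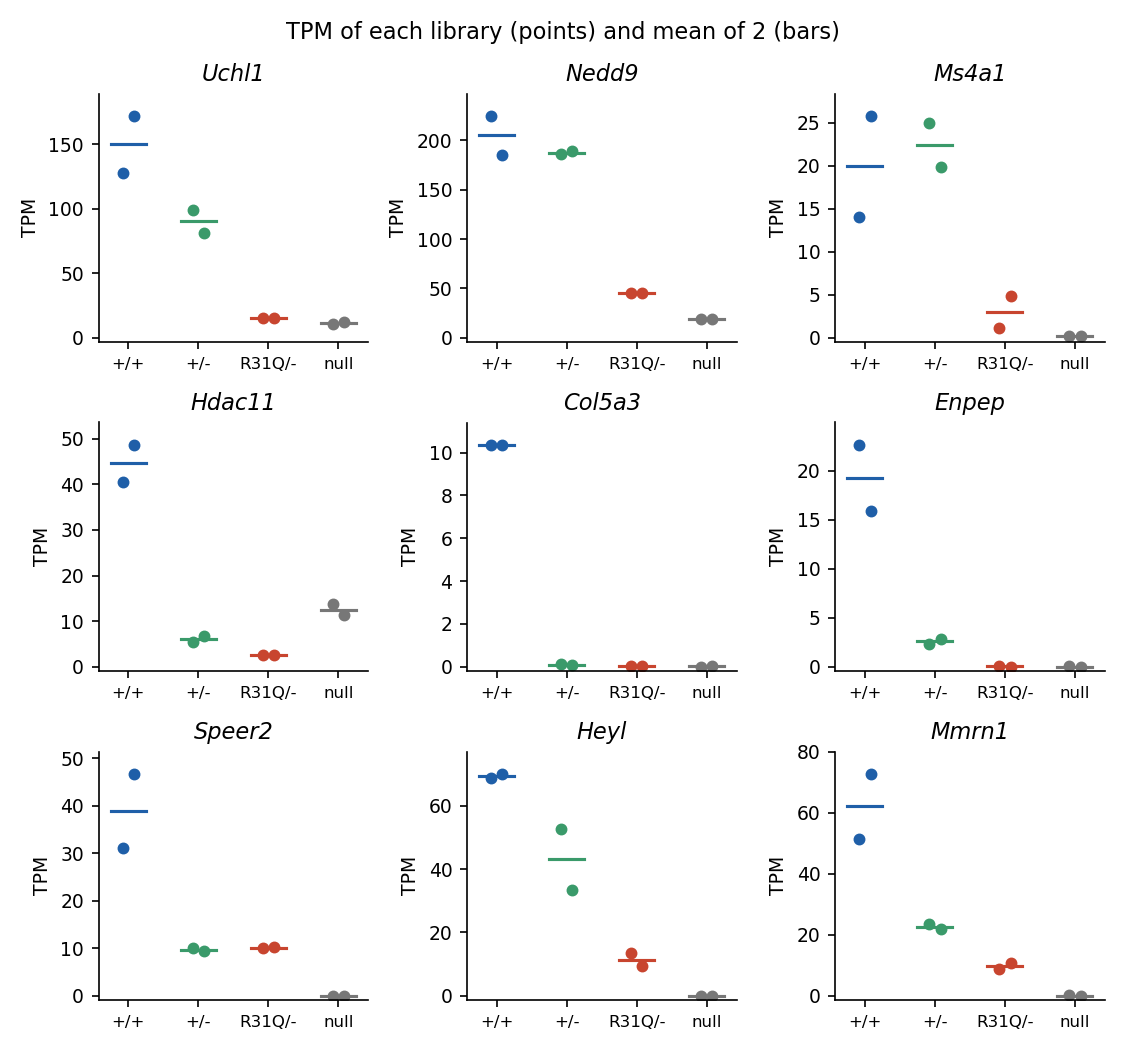
TPM of 9 genes in each of the 8 libraries (points) with the mean of the 2 libraries of a genotype (bars), each panel on its own linear axis, where null stands for Pax5fl/fl Vav-Cre. Nedd9 and Ms4a1 overlap between Pax5+/+ and Pax5+/-, Speer2 and Col5a3 are at about the same level in Pax5+/- and Pax5R31Q/-, and Hdac11 is higher in null than in either.

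At the other end, 4 genes overlapped between Pax5+/- and Pax5+/+ libraries. Nedd9 had 225 and 185 TPM in Pax5+/+ and 186 and 189 TPM in Pax5+/- cells, but 45.4 and 44.9 TPM in Pax5R31Q/- and 18.7 and 19.3 TPM in null cells. Ms4a1, which encodes the B cell antigen CD20, had 14.0 and 25.8 TPM with both alleles, 24.9 and 19.9 TPM with 1 allele, 1.18 and 4.83 TPM in Pax5R31Q/- and 0.234 and 0.190 TPM in null cells. Fcmr, the receptor for the Fc part of IgM, had 21.6 and 35.2, 30.9 and 17.1, 3.03 and 5.22, and 0.602 and 0.712 TPM in the same order. Ms4a1 and Fcmr are also markers of later B cells, and the summed TPM of all 15 markers of that list was 824 and 935 in Pax5+/+ and 1032 and 1023 in Pax5R31Q/- cells. The sum and the single genes differed in direction, since the other 12 markers tested had a median log2 difference of -0.86 between Pax5R31Q/- and Pax5+/+ cells, with 3 lower (H2-Ab1, Cd22 and Tnfrsf13c) and 1 higher at an adjusted p under 0.05 from limma, and their part in the values of Ms4a1 and Fcmr was not tested. The fourth gene was Selenom, which codes for a selenoprotein.

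Pax5+/- and Pax5R31Q/- cells each have a single allele that gives Pax5 protein, wild-type in one and R31Q in the other, so their comparison holds the number of alleles constant. Both Pax5+/- libraries lay above both Pax5R31Q/- libraries for 68 of the 69 genes, compared with 26.6% of 9908 expressed genes; Speer2 was the exception. By limma, 28 genes of the set were higher in Pax5+/- at an adjusted p under 0.05, of 47 genes in all (0.35% of 13436), and 14 of them also exceeded 3-fold on the log2(TPM + 1) scale, of 16 in all (0.119%). The median log2 difference was 1.27, against -0.01 over all genes tested. The Pax5R31Q/- libraries were used to choose these genes, so these counts, and the adjusted p-values of this comparison given for single genes below, describe the set and are not independent evidence. The 3-fold count fell to 0 when the first Pax5+/- library or either Pax5R31Q/- library was left out, to 4 without the second Pax5+/- library, to 7 without either Pax5+/+ library and to 9 without either null library.

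**Figure D5:**
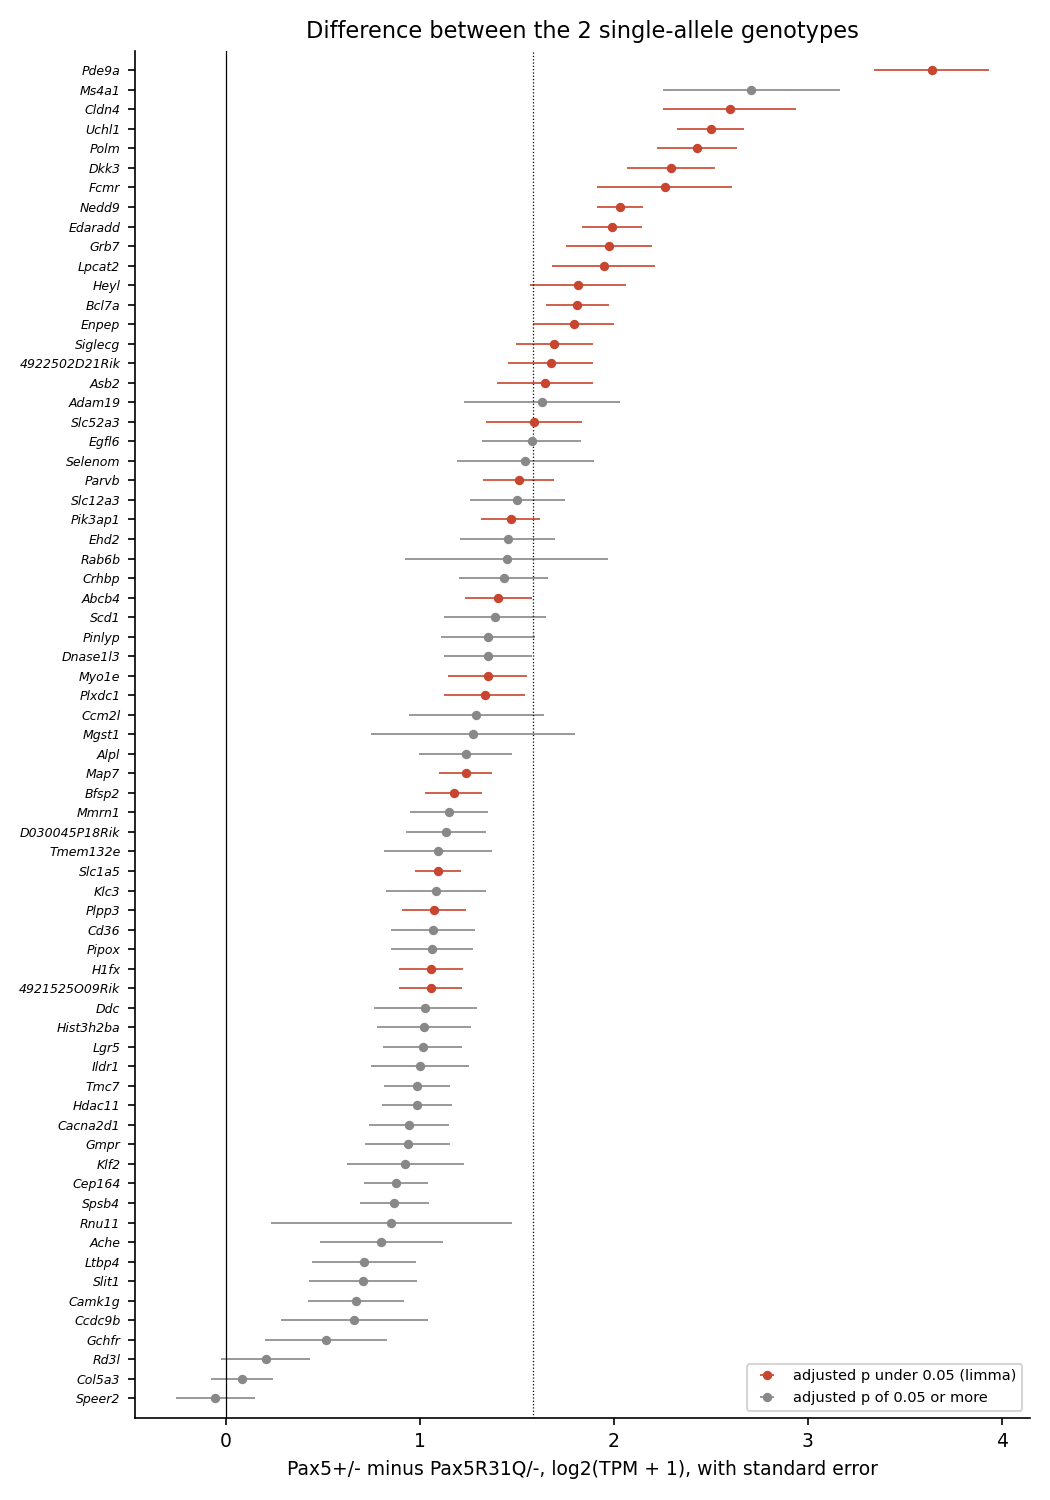
Log2(TPM + 1) difference between Pax5+/- and Pax5R31Q/- cells for each of the 69 genes, with the standard error from limma, ordered by size; red marks an adjusted p under 0.05 and the dotted line a 3-fold difference. The differences run from -0.05 for Speer2 to 3.64 for Pde9a.

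Among the signal transducers, Pde9a, a phosphodiesterase specific for cGMP, showed the largest difference between the single-allele genotypes, with 26.0 and 43.5 TPM in Pax5+/+ cells, 426 and 258 reads in Pax5+/- libraries and 2 and 0 in Pax5R31Q/- libraries (log2 difference 3.64 ± 0.30, adjusted p = 0.00491 from limma). Pik3ap1, the adaptor BCAP that links receptors to PI3K, had 471 and 497 TPM in Pax5+/+, 392 and 324 TPM in Pax5+/- and 143 and 115 TPM in Pax5R31Q/- cells, a smaller difference of 1.47 ± 0.15 (adjusted p = 0.0121), and kept 20.2% of its Pax5+/+ level in null cells. Grb7, an SH2 adaptor, had 93.8 and 127 TPM in Pax5+/+ and went from 78.5 and 52.3 TPM to 15.1 and 16.0 TPM (1.97 ± 0.22, adjusted p = 0.0171 from limma) and was at 0.957 and 1.12 TPM in null cells. Camk1g and Ccm2l did not pass the test, with differences of 0.67 ± 0.25 and 1.29 ± 0.35. Of the other 25 genes of a list of B cell receptor and PI3K signaling, 4 were lower and 2 higher in Pax5R31Q/- than in Pax5+/+ cells (adjusted p under 0.05 from limma). Sh3bp5, Rasgrp3 and Lyn were among the lower ones, at -1.59, -1.76 and -0.66. For comparison, 2.52% of all genes tested were lower and 1.53% higher. The list was built around Pik3ap1, Rasgrp3 and Sh3bp5, with earlier results of these data known, so its counts are not independent evidence. In null cells 11 of the 25 were lower and 4 higher, beside 19% and 15.9% of all genes tested. Among the other 8 tested genes for cGMP turnover, only Npr1, a receptor cyclase, was lower in Pax5R31Q/- cells (adjusted p under 0.05 from limma). Its difference from Pax5+/+ cells was -1.52.

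The surface receptors held the largest share of genes whose promoter peaks were not met, 5 of 8. Siglecg, an inhibitory lectin of B cells, was the most abundant of them, with 215 and 275 TPM in Pax5+/+, 156 and 141 TPM in Pax5+/-, 44.2 and 46.3 TPM in Pax5R31Q/- and 10.6 and 15.9 TPM in null cells. Its peak, centered 10 bp from the TSS, was 640 bp wide and the only one at the locus. Of the other 6 Siglec genes tested, only Cd22 was lower in Pax5R31Q/- than in Pax5+/+ cells at an adjusted p under 0.05 from limma. Cd22 differed by -0.89, and Siglech by -1.91 (adjusted p = 0.139 from limma). 4922502D21Rik, named Clec2m in RefSeq and one of the C-type lectin genes, had 5.51 and 8.23 TPM in Pax5+/+ and 2.68 and 2.03 TPM in Pax5+/- cells but 0.046 and 0.047 TPM in Pax5R31Q/- and 0.064 and 0.181 TPM in null cells. Lgr5, a receptor for R-spondins, was at 48.0 and 46.1, 21.1 and 25.3, 13 and 9.17, and 0.169 and 0.406 TPM in the 4 genotypes, and so fell further in null than in Pax5R31Q/- cells. Cd36, the scavenger receptor for fatty acids, behaved alike at 12.2 and 11.3, 4.28 and 5.81, 1.96 and 1.76, and 0.533 and 0.126 TPM. Plxdc1 kept all 5 of its peaks and had 34.6 and 28.6 TPM in Pax5R31Q/- against 86.2 and 75.7 TPM in Pax5+/- cells (adjusted p = 0.0468 from limma). Ildr1 reached 21.9% and 10.6% of its Pax5+/+ level in Pax5R31Q/- and null cells.

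Of the 7 adhesion and cytoskeletal genes, 6 had higher values in Pax5+/- than in Pax5R31Q/- cells at an adjusted p under 0.05 from limma, beside 0.35% of all genes tested, a count that follows in part from choosing genes low in these Pax5R31Q/- libraries; Klc3, a kinesin light chain, had a difference of 1.08 ± 0.26 and did not pass. Nedd9 gave the smallest adjusted p of the set (2.03 ± 0.12, adjusted p = 0.00326). Parvb, the parvin that ties integrins to actin, had 59.5 and 77.6 TPM in Pax5+/+, 40.9 and 31.4 TPM in Pax5+/-, 12.7 and 11.3 TPM in Pax5R31Q/- and 10.4 and 10.6 TPM in null cells. Map7, a microtubule-binding protein, had 80.2 and 89.1 TPM, 41.2 and 38.6 TPM, 16.6 and 16.1 TPM, and 19.7 and 23.9 TPM in the same order, and so was lowest with Pax5-R31Q. Cldn4, a tight-junction claudin, was at 14.0 and 25 TPM in Pax5+/+, 10.5 and 5.50 TPM in Pax5+/-, 0.595 and 0.284 TPM in Pax5R31Q/- and 0.110 and 0.156 TPM in null cells. Bfsp2, an intermediate filament protein known from the lens, was among the most abundant genes, with 278 and 288 TPM in Pax5+/+, 74.9 and 76.3 TPM in Pax5R31Q/- and 10.6 and 7.76 TPM in null cells, and all 6 of its peaks were met. Myo1e stood at 10.5 and 9.97 TPM in Pax5+/+, 7.21 and 5.06 TPM in Pax5+/- and 1.95 and 1.60 TPM in Pax5R31Q/- cells. Of the 21 other adhesion and actin adaptor genes tested, 4 were lower and 2 higher in Pax5R31Q/- cells (adjusted p under 0.05 from limma). The lower ones were Itgb4, Pfn2, Ajuba and Ptk2b, at -1.96, -1.61, -1.43 and -0.76 against Pax5+/+ cells. Of all genes tested, 2.52% were lower and 1.53% higher. The list was built around Nedd9, Parvb and Ajuba, so its count is not independent evidence. In null cells 5 of the 21 were lower and 6 higher, beside 19% and 15.9% of all genes tested.

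Among the 7 nuclear genes, Bcl7a, a subunit of BAF chromatin remodelers, was the most abundant gene of the whole set, with 627 and 745 TPM in Pax5+/+, 546 and 469 TPM in Pax5+/-, 152 and 135 TPM in Pax5R31Q/- and 99.9 and 128 TPM in null cells (Pax5+/- minus Pax5R31Q/- 1.81 ± 0.16, adjusted p = 0.00699 from limma). Polm, the polymerase that fills ends during V(D)J recombination, had 34.8 and 31.1 TPM in Pax5+/+, 17.7 and 12.3 TPM in Pax5+/-, 1.87 and 2.01 TPM in Pax5R31Q/- and 1.26 and 0.919 TPM in null cells (2.43 ± 0.21, adjusted p = 0.00577). None of the other 3 family X polymerases tested had an adjusted p under 0.05 between Pax5R31Q/- and Pax5+/+ cells. Dntt came nearest and was higher in Pax5R31Q/- cells, by 0.59 (adjusted p = 0.0513 from limma). Heyl, a bHLH repressor downstream of Notch, was at 68.7 and 70.2, 52.8 and 33.3, 13.5 and 9.27, and 0 and 0.031 TPM, the largest gap between Pax5R31Q/- and null cells in this class. None of the other 4 Hes and Hey genes tested or of the 10 other histone deacetylases passed the test in Pax5R31Q/- cells. Klf2, a zinc finger factor of lymphocyte quiescence, had 22.1 and 13.3 TPM in Pax5R31Q/- and 15.5 and 25.2 TPM in null cells, which overlapped. The linker histone gene H1fx and the histone gene Hist3h2ba kept 31.9% and 30.6% of their Pax5+/+ level in Pax5R31Q/- cells. H1fx, whose promoter peak was not met, had 116 and 153, 98.7 and 81.9, 41.0 and 44.5, and 16.3 and 14.9 TPM in the 4 genotypes.

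In the ubiquitin class, Uchl1, a neuronal type ubiquitin hydrolase, had 128 and 172 TPM in Pax5+/+, 99.2 and 81.2 TPM in Pax5+/-, 15.2 and 14.9 TPM in Pax5R31Q/- and 10.8 and 12.0 TPM in null cells. Its R31Q level lay close to the null level, and its difference between the single-allele genotypes was 2.5 ± 0.17 (adjusted p = 0.004 from limma), although its only peak, at the promoter, was met. Asb2, a substrate receptor of cullin ligases, had 11 and 6.72 TPM in Pax5R31Q/- but 0.148 and 0.289 TPM in null cells, and all 3 of its peaks were met.

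The 7 metabolic enzymes, 5 ectoenzymes and 5 transporters include several of lipid metabolism. Lpcat2, which remodels phospholipids, had 14.9 and 19.9 TPM in Pax5+/+, 12.6 TPM in both Pax5+/- libraries, 2.24 and 2.84 TPM in Pax5R31Q/- and 5.06 and 2.64 TPM in null cells (1.95 ± 0.27, adjusted p = 0.0311 from limma). Scd1, the stearoyl-CoA desaturase, had 14.8 and 17.8, 10.2 and 8.47, 2.51 and 3.42, and 3.07 and 5.63 TPM in the same order and did not pass the test (1.39 ± 0.26, adjusted p = 0.0836). Plpp3, a phosphatase of bioactive lipids, had 15 and 15.9 TPM in Pax5+/+ and went from 6.13 and 7.09 TPM in Pax5+/- to 2.82 and 2.42 TPM in Pax5R31Q/- and 0.221 and 0.179 TPM in null cells. Of the other 22 lipid enzymes tested, 5 were lower and 0 higher in Pax5R31Q/- than in Pax5+/+ cells (adjusted p under 0.05 from limma). Mgst2, Elovl6, Crat and Mgll were between -1.59 and -1.44 and Lipe was at -0.81. Of all genes tested, 2.52% were lower and 1.53% higher. The list was built around genes that include Elovl6 and Mgll, so its count is not independent evidence. In null cells 3 of the 22 were lower and 8 higher, beside 19% and 15.9% of all genes tested, and Mgst2 was higher, at 0.47. Alpl, the alkaline phosphatase, had 23.1 and 15.7 TPM in Pax5R31Q/- but 0.889 and 0.473 TPM in null cells. Slc1a5, a glutamine transporter, was at 422 and 476 TPM in Pax5+/+, 305 and 276 TPM in Pax5+/-, 138 and 133 TPM in Pax5R31Q/- and 125 and 143 TPM in null cells, so that both mutants stood at about the same share of the Pax5+/+ level (30.1% and 29.8%). Abcb4, a phospholipid exporter, had 23.6 and 22.9, 11.5 and 11.8, 4.12 and 3.46, and 4.70 and 3.51 TPM and was likewise at 16.3% and 17.7%. Slc52a3, a riboflavin transporter, was at 11.2% and 18.8%. Its null libraries, at 2.67 and 1.94 TPM, both lay above its Pax5R31Q/- libraries, at 1.09 and 1.65 TPM. The libraries of a genotype stood far apart for Mgst1, a microsomal glutathione transferase, with 60.9 and 37.5, 25.7 and 34.9, 15.1 and 9.20, and 5.96 and 1.16 TPM. The same held in null cells for Adam19, a membrane metalloproteinase, with 12.8 and 10, 7.19 and 5.05, 1.48 and 1.09, and 1.39 and 4.97 TPM.

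The secreted proteins had the lowest levels, with a median of 9.82 TPM in Pax5+/+ cells, and stood at a median of 7.88% of that level in Pax5R31Q/- and 0.373% in null cells. Dkk3, of the Dickkopf family of Wnt modulators, had 7.37 and 8.98 TPM in Pax5+/+, 5.48 and 3.33 TPM in Pax5+/-, 0.1 and 0.061 TPM in Pax5R31Q/- and 0.083 and 0.020 TPM in null cells. Crhbp, which binds corticotropin-releasing hormone, had 41 and 50 reads in Pax5+/- libraries, 2 and 3 in Pax5R31Q/- and 0 in both null libraries. Dnase1l3, a DNase of apoptotic debris, had 7.38 and 10.9, 3.62 and 2.55, 0.602 and 0.576, and 0.189 and 0.191 TPM, and Egfl6 had 10.3 and 5.61, 4.36 and 4.02, 0.691 and 0.789, and 0 and 0 TPM. Mmrn1, a multimerin, was the most abundant, with 51.5 and 72.8 TPM in Pax5+/+, 23.4 and 21.7 TPM in Pax5+/-, 8.73 and 10.6 TPM in Pax5R31Q/- and 0.129 and 0.015 TPM in null cells.

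The 2 mutants differed from each other within the set. Both null libraries lay below both Pax5R31Q/- libraries for 50 of the 69 genes, compared with 47.4% of 9908 expressed genes, 14 genes overlapped and 5 were higher in null cells. On the log2(TPM + 1) scale, which understates differences between weakly expressed genes, the genotypes were within 2-fold of each other for 39 genes, and null cells were more than 4-fold lower for 13. For 6 genes more than 10 TPM remained in Pax5R31Q/- and less than 1 TPM in null cells, namely Heyl, Alpl, Ehd2, Lgr5, Tmem132e and Speer2. Ehd2, a membrane-shaping ATPase, had 23 and 14.1 TPM in the former and 0.978 and 0.509 TPM in the latter. Tmem132e had 13.2 and 8.15 TPM against 0.361 and 0.112 TPM. These values were used to choose the genes and are given as a description. Null libraries also had fewer proliferation transcripts, as given above, and the part of this was not tested.

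Grouped by their promoters, the 18 genes whose peaks were not met had a median of 16.1% of the Pax5+/+ level in Pax5R31Q/- cells, the 24 genes whose peaks were met 21.5% and the 27 genes without a promoter peak 17.4%. In null cells the medians were 1.93%, 6.66% and 3.51%, and in Pax5+/- cells 51.4%, 54.1% and 45.6%. The ranges of the 3 groups overlapped in each genotype, and the genes with a met peak were more highly expressed, with a median of 58.0 TPM in Pax5+/+ cells against 19.7 and 17.9 TPM.

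None of 16 established Pax5-activated B cell genes belonged to the set. By limma at an adjusted p under 0.05, 6 of them were lower in Pax5R31Q/- than in Pax5+/+ cells and 0 higher. Among the 6 were Bach2, Spib, Cd72, Tnfrsf13c and Vpreb3, from -1.25 for Bach2 to -0.93 for Vpreb3. The median of the 16 was -0.87. Of all genes tested, 2.52% were lower and 1.53% higher. In null cells, 14 were lower and 1 was higher, with a median of -2.56, while 19% of all genes tested were lower and 15.9% higher. Ikzf3, an Ikaros family factor, differed by -0.82 (adjusted p = 0.102 from limma) in Pax5R31Q/- and by -4.28 in null cells. These comparisons share the Pax5+/+ libraries.

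Genes on either side of the limits were close in value. For Pax5R31Q/- the last genes inside were Gchfr, H1fx and Cacna2d1, at -1.60, -1.61 and -1.62, and the first outside were Bcat1, Hist1h2af and Mir7240, at -1.57, -1.54 and -1.48. For null cells Klf2, Adam19 and Rnu11 were inside at -1.68, -1.70 and -1.72, and Hist1h2al, Padi3 and Zfp94 outside at -1.45, -1.41 and -1.20. For expression Tmc7, Pinlyp and D030045P18Rik were inside at 5.06, 5.33 and 6.03 TPM, and Serpina3n, Itgb4 and Phyhip outside at 4.997, 4.98 and 4.69 TPM. Rnu11, a small nuclear RNA, rests on 2 to 37 reads per library, and Pinlyp on 0 reads in Pax5R31Q/- and 1 in each null library. Of the 69 genes, 30 overlap another annotated gene, 7 of them on the same strand, and as the strand setting of the counting is not stated their values are uncertain; among those named most, these include Map7, Bcl7a, Abcb4, Adam19, Lpcat2 and Myo1e on the same strand and Pde9a, Nedd9, Uchl1, Grb7, Pik3ap1 and Ms4a1 on the other.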

How the data were processed

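TPM values were used as deposited. The authors removed ribosomal reads with Bowtie 2, aligned 50-base single reads to GRCm38/mm10 with STAR, counted unique reads on RefSeq genes with featureCounts and computed TPM for 25579 genes; the labels list Bowtie2 2.3.5.1, SAMtools 1.9, Picard 2.18.27 and STAR 2.4.2. Peaks were called by the authors with MACS against input and deposited as start and end positions (other columns were not used). Whole reads could be recovered from the TPM steps of all 17371 genes above 0 in at least 3 libraries (tolerance 0.001).

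The 8 libraries were fitted together on the log2(TPM + 1) scale (limma 3.58.1, R 4.3.3), for 13436 genes with at least 1 TPM in at least 1 library, with a variance trend and Benjamini-Hochberg adjustment. A 3-fold call also needed a mean TPM over 5. The scale understates changes of weakly expressed genes. The scripts were tested on simulated data. Peaks and sequences were handled in Python 3.11.15 with pysam 0.24.0 on RefSeq GRCm38.p6, to which all 69 genes matched; 4922502D21Rik is Clec2m there. Library replicates had Spearman correlations of 0.9625 to 0.9754 across genes, which are not independent.

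The gene set, the lists and the rule for named genes were chosen with earlier results of these data known. Values were given for the 6 genes with the largest log2 fall from Pax5+/+ to Pax5R31Q/-, the 6 highest in Pax5+/+ and those called in Pax5+/-. They were also given for genes whose promoter peaks were not met, list members and genes beside a limit. Other genes were added after their values were seen. The values of some listed genes are not reported here. Summed markers were taken for pro-B, later B, plasmacytoid dendritic, T and NK, myeloid and erythroid cells and for proliferation. The sum of erythroid markers was 14.3 and 40.8 TPM in null libraries and 77.6 to 133 TPM in the others. Alternatives covered the pseudocount, filters, scaling, the trend, the fit, the call rule, voom, single libraries, and the window, overlap and width of peaks.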

Additional observations from a re-analysis of the deposited data

How the results depend on the processing

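No paired analysis was possible because the labels carry library numbers but no replicate numbers, and the numbers used here follow accession order. The 69 genes rest on 2 libraries per genotype. A limit of 2-fold in both mutants gave 169 genes, and without the second Pax5+/+ library the rule kept 55 of the 69 genes. The selection under the other settings gave between 60 and 93 genes. For Pax5+/- against Pax5+/+, the count of 3 became 5 with median-ratio scaling or quantile normalization, 6 without a variance trend, 8 with limma-voom on recovered reads and 0 with only the 2 genotypes in the fit; single libraries left out gave 1 to 2. For Pax5+/- against Pax5R31Q/-, the count of 14 became 6 with no filter on low TPM, 8 with only the 2 genotypes in the fit, 28 on the adjusted p alone and 25 at more than 2-fold; single libraries left out gave 0 to 9. The count of 18 genes whose promoter peaks were not met by an R31Q peak became 5 with peaks of at least 400 bp. The median of -0.89 ranged from -1.02 to -0.78 with single libraries left out and moved by less than the spread between the Pax5+/- libraries in every setting run, and no result changed direction. Single genes lost an adjusted p under 0.05 in 216 of 527 repeats. The causes were not tested.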
